A study of Homo sapiens with 14 samples.

Results

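The response of HT-29 cells to tumour necrosis factor (TNF) in the presence of liproxstatin-1 was described across all expressed genes. HT-29 is a human colorectal carcinoma line, here wild type in every group, and RNA was sequenced from 14 libraries in 6 groups. The comparison set 2 libraries of cells given TNF and liproxstatin-1 against 2 libraries of cells given liproxstatin-1 alone, so 4 of the 14 libraries entered it directly. Liproxstatin-1, a radical-trapping antioxidant that blocks lipid peroxidation and ferroptosis, was used at 20 uM in both groups, TNF was labelled 100 ug/ml, and treatment lasted 72 h. Of 36555 gene IDs in the deposited table, 22179 had enough counts to be tested, and these are the genes described. Other groups, used for the differences at the end, were 3 libraries of untreated controls in 0.1% DMSO, 2 of TNF alone, 2 of 20 uM ferrostatin-1 (a second inhibitor of lipid peroxidation) and 3 of TNF with ferrostatin-1. The labels do not say whether the groups with a compound also held DMSO. The replicates are labelled technical, so p-values measure the spread between these libraries and not between independent cultures.

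TNF binds TNFR1 and, in some cells, TNFR2. Receptor complexes built on TRADD, RIPK1 and TRAF2 free NF-kB from its IκB inhibitors, and NF-kB drives cytokines, adhesion molecules, antigen presentation and its own inhibitors. When this survival branch fails, FADD and caspase-8 can start apoptosis, or RIPK3 and MLKL necroptosis. Ferroptosis is a separate, iron-dependent death by lipid peroxidation that GPX4 and the cystine importer SLC7A11 restrain.

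Totals were 60328619 and 70830128 counts in the liproxstatin-1 libraries (numbered 1 and 3) and 61467684 and 70790640 in those with TNF (numbered 1 and 2). Values below are CPM, counts scaled to a common total after each library total was multiplied by its TMM factor from edgeR. The factors were 0.947 and 0.951 in the liproxstatin-1 libraries and 1.041 and 1.038 in those with TNF. Changes are log2 fold changes ± standard error with p-values from edgeR's quasi-likelihood test. The p-values were adjusted over all 22179 genes by the Benjamini-Hochberg method. A gene was called at an adjusted p below 0.05. The epithelial markers KRT8, KRT18 and EPCAM were abundant (EPCAM at 454 to 504 CPM). Intestinal genes differed in level. CDX1, GPA33, CDH17 and CEACAM5 stayed at or under 7.63 CPM in all 4 libraries, and CDX2 stood at 6.91 to 8.19 CPM. LGALS4 (161 to 733 CPM), VIL1 (134 to 189 CPM), TSPAN8 (73.4 to 108 CPM) and HNF4A (20.1 to 37.5 CPM) were higher. Libraries of a group were not equal in some genes of other cell types. The endothelial gene VWF stood at 4.76 and 0.119 CPM in liproxstatin-1 libraries 1 and 3, and at 0 and 19.0 CPM with TNF in libraries 1 and 2. The hair keratin KRT81 divided the libraries the same way in the opposite direction, with 1.05 and 14 CPM without TNF and 13.5 and 1.85 CPM with it. For both genes the groups overlapped. The summed CPM of 16 fibroblast and endothelial markers was 52.2 and 35 without TNF and 28.5 and 78.5 with it, and their part in the changes below was not tested. Only the contractile actin gene ACTA2 among them was called (0.578 and 1.04 against 1.78 and 2.50 CPM).

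TNF changed 3240 genes (14.6% of those tested), 1680 higher (7.57%) and 1560 lower (7.03%). In every one of the 3240 called genes both libraries with TNF lay on the same side of both libraries without it. This alone sets the called genes little apart. Among all 22179 tested genes, called or not, 7503 lay wholly higher and 6363 wholly lower with TNF. The rises were the larger changes: 857 genes rose and 413 fell at least 2-fold, and 289 rose and 98 fell at least 4-fold. The median over all tested genes was 0.06 on the log2 scale. Among genes with a mean over 100 CPM the split was turned round, with 180 higher and 523 lower of 2451, and under 1 CPM it was 221 higher and 40 lower of 8004. Leaving out any 1 of the 4 libraries left 1328 to 1485 calls, and fitting without the TNF-alone libraries gave 5601. In bulk RNA, fewer cells of a kind and less RNA per cell cannot be told apart, and this holds for every change below.

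**Figure D1:**
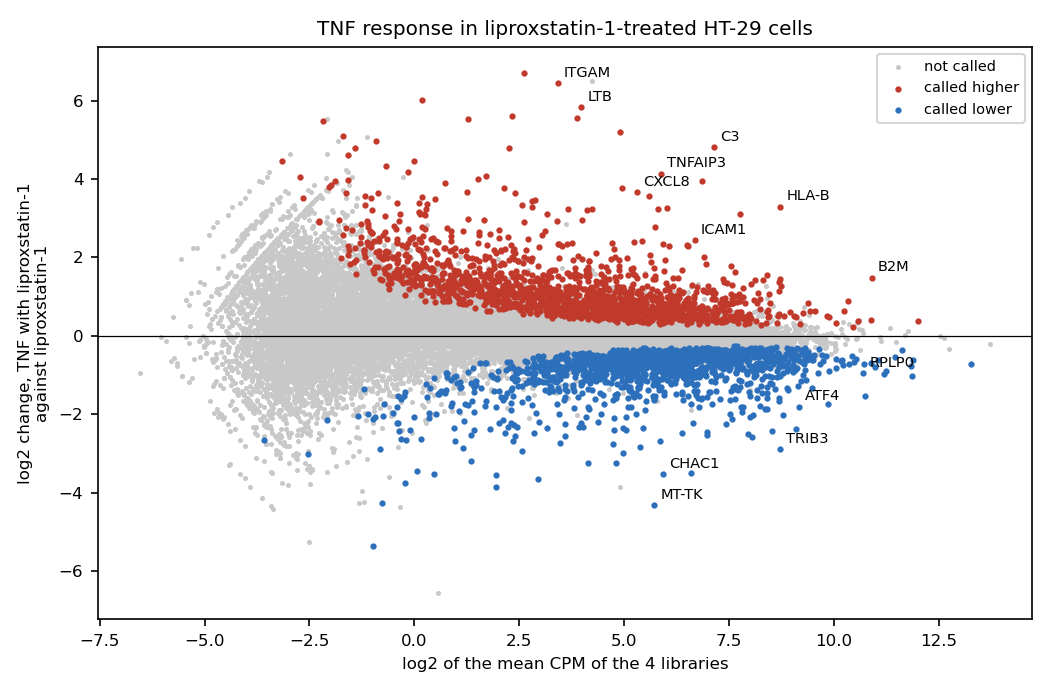
Each point is a gene with counts in both groups; the x axis is log2 mean CPM of the 4 libraries and the y axis the log2 change with TNF in liproxstatin-1-treated cells. Red points are called higher and blue points called lower at an adjusted p below 0.05, with grey points not called; rises reach further than falls, and blue points outnumber red ones at the right.

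The core of the NF-kB circuit rose. TNFAIP3, which encodes the deubiquitinase A20 that shuts TNF signalling down, had 7.12 and 5.51 CPM without TNF and 106 and 116 CPM with it, a change of 4.14 ± 0.15 (adjusted p = 6.8e-08). NFKBIA, the inhibitor IκBα, went from 31.2 and 30.9 to 155 and 148 CPM (2.28 ± 0.12, adjusted p = 1.0e-06). Libraries of a group lay close together in both genes, far apart from the other group. The subunit gene NFKB2 rose by 2.00 ± 0.13 and the kinase gene IKBKE by 2.00 ± 0.12. Of 19 tested NF-kB subunits and feedback inhibitors 9 rose and 1 fell, with a list median of 0.53.

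Windows from the 250 bases before the RefSeq starts of TNFAIP3 and CXCL8 are shown for the letters that NF-kB is known to bind. Sequences are from RefSeq on GRCh38.p14, 5′ to 3′ on the gene's strand, and capitals mark matches to GGNNNTTCC on either strand. CXCL8, on chromosome 4 like CXCL10, encodes the neutrophil attractant interleukin-8.
TNFAIP3, chr6:137867182-137867222, plus strand: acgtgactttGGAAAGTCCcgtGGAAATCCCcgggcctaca
CXCL8, chr4:73740468-73740496, plus strand: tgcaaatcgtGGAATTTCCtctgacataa
The letters lie 37 to 77 bases before the start of TNFAIP3, flanks included, and 73 to 101 bases before that of CXCL8.

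Among ligands and receptors of the TNF superfamily 7 of 21 rose and 2 fell. TNF itself went from 0.228 and 0.178 CPM to 10.6 and 9.12 CPM (5.60 ± 0.42, adjusted p = 1.0e-05). LTB, encoding lymphotoxin beta, went from 0.788 and 0.312 to 33.8 and 27.8 CPM (5.83 ± 0.39). TNFSF10, the death ligand TRAIL, rose by 1.69 ± 0.20, and the decoy receptor gene TNFRSF6B rose from 0.0700 and 0 CPM to 3.47 and 0.980 CPM, with its TNF libraries unequal. The receptors of TNF moved in opposite directions. TNFRSF1A (TNFR1) fell from 196 and 186 to 96.3 and 98.7 CPM (-0.97 ± 0.16, adjusted p = 0.0021), while TNFRSF1B (TNFR2) rose from 2.00 and 1.14 to 6.45 and 8.17 CPM (2.22 ± 0.40, adjusted p = 0.0035). Of the 18 genes of the receptor complexes 4 rose and 2 fell, the adaptors TRAF1 (1.17 ± 0.20), TRAF3 (0.83 ± 0.14) and TRAF2 (0.63 ± 0.10) among the rises.

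Of 17 chemokines, which draw leukocytes into tissue, 9 rose and none fell, with a median of 1.44. CXCL8 went from 5.90 and 5.55 to 75.3 and 70.2 CPM (3.67 ± 0.16, adjusted p = 1.9e-07). CXCL10, an attractant of T cells, went from 1.70 and 2.03 to 18.0 and 14.3 CPM (3.11 ± 0.28), and CXCL1 from 3.73 and 3.04 to 32.5 and 29.8 CPM (3.20 ± 0.33). In each of these 3 genes the lowest library with TNF was several times the highest without it. The mucosal chemokine CCL28 rose by 2.36 ± 0.26. CCL20 (1.32) and CXCL2 (0.22) were not called.

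Of 21 cytokines and acute phase products 7 rose and none fell. SAA1 and SAA2, serum amyloid genes, went from 0.298 and 0.356 to 11.1 and 7.29 CPM (4.80 ± 0.59) and from 0 and 0.193 to 4.14 and 5.35 CPM (5.52 ± 0.80). IL32 rose by 3.78 ± 0.21, IL23A by 3.67 ± 0.40, the macrophage growth factor CSF1 by 1.97 ± 0.23 and PIGR, which carries IgA across epithelium, by 2.93 ± 0.32. The cytokines IL6 (-0.13) and IL1B (-0.11) were not called. Complement C3 went from 10.9 and 8.58 to 264 and 282 CPM (4.81 ± 0.37, adjusted p = 1.5e-05) and CFB, factor B of the alternative pathway, from 23.3 and 21.6 to 114 and 108 CPM. Within the complement list of 16 genes 4 rose and 1 fell. ICAM1, which binds leukocyte integrins, went from 33.3 and 30.4 to 165 and 181 CPM (2.44 ± 0.12, adjusted p = 8.4e-07). Of 13 adhesion and immune ligand genes 4 rose, CD274 (PD-L1) by 0.89 ± 0.21 and ICOSLG by 1.53 ± 0.16.

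**Figure D2:**
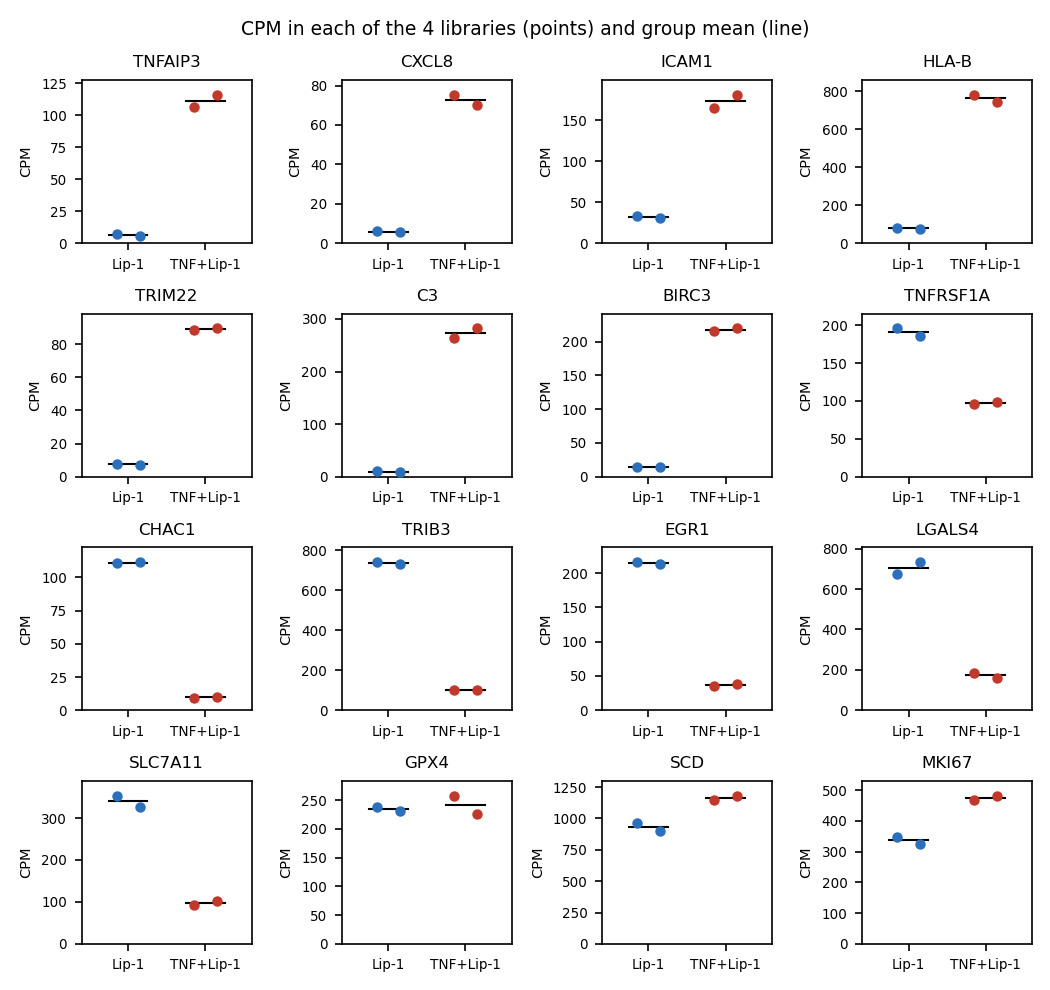
Points give CPM in each of the 4 libraries for 16 genes, each on its own axis from 0, with a line at the group mean; blue is liproxstatin-1 alone and red is TNF with liproxstatin-1. TNFAIP3, CXCL8, HLA-B and C3 lie near 0 without TNF on these axes, CHAC1 and TRIB3 with it, and for GPX4 the groups overlap.

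Genes of antigen presentation by MHC class I rose, from the heavy chains to the peptide transporter complex. HLA-B went from 81.1 and 74.1 to 782 and 745 CPM (3.30 ± 0.20, adjusted p = 2.5e-06). HLA-F rose by 2.33 ± 0.20 and TAPBP, the tapasin bridge to the peptide transporter, by 1.22 ± 0.12, and B2M, the light chain, went from 964 and 1037 to 3029 and 2577 CPM (1.49 ± 0.14). Of 17 genes 11 rose and none fell (median 1.08). Reads of HLA genes may be shared between near-identical copies, so their single values are uncertain. Catalytic subunits of the immunoproteasome rose too, PSMB9 from 19.8 and 17.8 to 85.9 and 71.1 CPM (2.06 ± 0.24) and PSMB8 by 1.3 ± 0.15. The third was PSMB10, from 55.1 and 54.0 to 84.5 and 76.8 CPM. These were the 3 called of 6 genes on a list that includes the activator, and 2 were called without any 1 library. Only 2 of 26 constitutive proteasome genes were called, PSMB2 (0.45 ± 0.11) and PSMA6 (0.43 ± 0.12). Of 11 class II pathway genes 3 rose: CD74, the invariant chain, by 3.23 ± 0.13, the protease CTSS by 2.33 ± 0.13 and HLA-DOB by 1.40 ± 0.39.

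Interferon-stimulated genes rose in 24 of 51 cases with none lower (median 0.73). TRIM22 went from 7.82 and 7.08 to 88.3 and 89.4 CPM (3.58 ± 0.22, adjusted p = 2.8e-06), and IFITM1, a membrane block to virus entry, from 45.6 and 44.7 to 412 and 364 CPM (3.10 ± 0.25). The ubiquitin-like pathway genes UBA7 (1.69 ± 0.13) and UBE2L6 (1.36 ± 0.20) rose, and ISG15, which they conjugate, stood at 0.36 and was not called. Without 1 of the 4 libraries, whichever it was, 11 to 16 members were called. Of 8 interferon gamma type GTPase and related genes 3 rose and 1 fell, GBP4 by 2.95 ± 0.20 and the tryptophanyl-tRNA synthetase WARS1 by -1.3 ± 0.33. Of 20 IRF and STAT transcription factors 4 rose (20%) and 1 fell (5%). STAT5A (1.28 ± 0.13), STAT2 (0.77 ± 0.14) and IRF2 (0.49 ± 0.12) were among the rises, and STAT6 (-0.31 ± 0.09) was the fall. Without any 1 library 2 were called higher and 0 lower.

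The window before CXCL10 holds both kinds of letters, a pair of GAAA with any 2 bases between (a pattern of the interferon-stimulated response element [ISRE]) and the NF-kB type, and is shown for that reason, with matches in capitals.
CXCL10, chr4:76023589-76023728, minus strand: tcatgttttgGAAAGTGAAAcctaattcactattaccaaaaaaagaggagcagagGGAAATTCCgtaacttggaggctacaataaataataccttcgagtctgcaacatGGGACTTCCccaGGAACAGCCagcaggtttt
It contains 1 ISRE-type and 3 NF-kB-type matches between 92 and 231 bases before the start. Promoters were matched by symbol for 12841 of the 22179 tested genes. In their 250 upstream bases 19.6% held the NF-kB type and 2.44% the ISRE type on either strand. The shares were 22.3% and 4.5% of 1090 called higher genes, and 19.5% and 1.48% of 1150 called lower genes. Among genes called at least 4-fold higher they were 29.4% and 6.62% of 136. For chemokines 76.9% of 13 promoters held the NF-kB type, and for interferon-stimulated genes 53.8% of 39 held the ISRE type. A match describes these letters only and is not evidence of binding.

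Cell death genes moved in both directions. BIRC3 (cIAP2), which ubiquitinates RIPK1 and keeps TNFR1 signalling on the survival branch, went from 14.5 and 14 to 216 and 220 CPM (3.94 ± 0.57, adjusted p = 0.0011). In the same 15 anti-apoptotic genes BIRC5 rose (0.91 ± 0.21) and 4 fell, BCL2L1 (BCL-XL) by -0.78 ± 0.17 and MCL1 by -0.51 ± 0.11 among them. Leaving out any 1 of the 4 libraries, the falls called on this list numbered 0 or 1. Of 29 pro-apoptotic genes 6 rose and 2 fell: the BH3 genes BMF (0.99 ± 0.14) and BID (0.72 ± 0.13) rose and PMAIP1 (NOXA) fell (-0.83 ± 0.16), while without any 1 library 2 to 3 were called higher and 0 to 1 lower. CASP8 (-0.25, 95% interval -0.48 to -0.02), RIPK1 (-0.14, -0.36 to 0.09) and the caspase-8 inhibitor CFLAR (0.26, 0.07 to 0.44, adjusted p = 0.068) were not called. Of 17 necroptosis and pyroptosis genes 4 rose, ZBP1 (2.18 ± 0.46), CASP1 (1.54 ± 0.33), PYCARD (0.86 ± 0.20) and GSDMB (0.60 ± 0.12). Without liproxstatin-1 library 1 or 3 none of this list was called, and without TNF with liproxstatin-1 library 1 or 2 it was 1 or 3. Of 20 listed p53 targets, genes of growth arrest and stress among them, 3 rose (15%) and 6 fell (30%). Without any 1 library 1 to 2 of these were called higher and 3 lower. PHLDA3 rose (1.09 ± 0.16) and GADD45A (-1.16 ± 0.19), GDF15 (-2.38 ± 0.31) and SESN2 (-2.49 ± 0.25) fell, the last also on the ATF4 list. CDKN1A, the p21 gene, had 113 and 108 against 61.6 and 60.4 CPM and was not called (-0.85, 95% interval -1.61 to -0.09).

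Falls were common in the ATF4 stress response, the programme of amino acid supply that follows phosphorylation of eIF2α. CHAC1, which degrades glutathione, had 111 and 112 CPM without TNF and 9.63 and 9.73 CPM with it (-3.52 ± 0.31, adjusted p = 4.0e-05). TRIB3, a pseudokinase that restrains the pathway, went from 741 and 732 to 101 and 99.1 CPM (-2.88 ± 0.40). ATF4 itself went from 858 and 916 to 270 and 237 CPM (-1.81 ± 0.20, adjusted p = 0.00025). In these genes the libraries of each group were nearly equal and the groups far apart. Of 43 members 36 fell and none rose, with a median of -1.35, and 30 to 32 were called lower without any 1 of the libraries. The glycyl-tRNA synthetase GARS1 (-1.57 ± 0.16) and the mitochondrial folate enzyme MTHFD2 (-1.58 ± 0.17) were among them, and the glycine transporter SLC6A9 fell by -2.97 ± 0.47. Of 21 endoplasmic reticulum chaperone and stress genes 7 fell and 2 rose. XBP1 (-1.23 ± 0.18), HERPUD1 (-1.23 ± 0.17), ERN2 (-1.56 ± 0.19) and CREB3L1 (-1.05 ± 0.14) fell, and the 2 that rose, both chosen after their values were seen, were CALR (0.59 ± 0.10) and PDIA4 (0.51 ± 0.08).

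A pair of promoters with the letters TGATGNAA, the core of the amino acid response element, is shown, with the match in capitals. ASNS, asparagine synthetase, fell by -2.06 ± 0.25 and was chosen for this match.
CHAC1, chr15:40953252-40953279, plus strand: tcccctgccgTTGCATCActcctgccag
ASNS, chr7:97872459-97872486, minus strand: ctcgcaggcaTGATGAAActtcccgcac
Such letters stood in 17.1% of 35 promoters of the ATF4 list, beside 1.61% of the 12841 promoters of tested genes. Of the promoters of called lower genes 3.04% held them, and of called higher genes 0.917%.

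**Figure D3:**
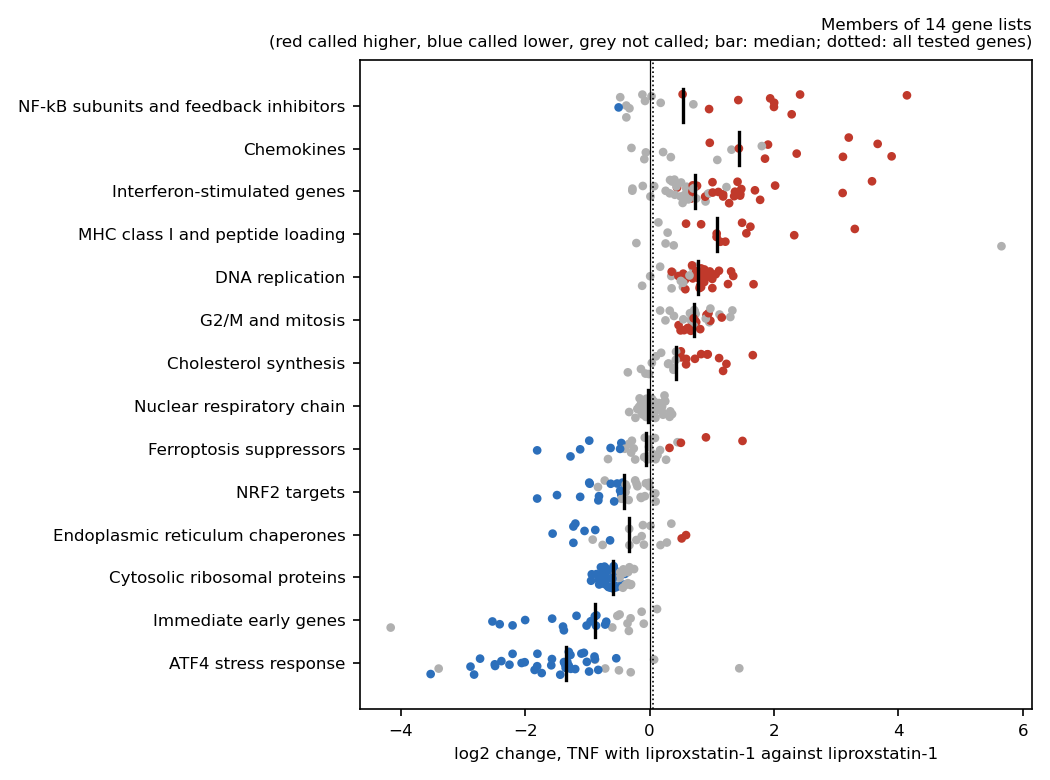
Each point is a tested member of 1 of 14 gene lists, placed by its log2 change with TNF in liproxstatin-1-treated cells; red is called higher, blue called lower and grey not called, with a black bar at the list median and a dotted line at the median of all tested genes (0.06). Vertical scatter within a row carries no value. Chemokine and MHC class I medians are above 1 and that of ATF4 is at -1.35.

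Immediate early genes, which mitogens and MAP kinase signalling switch on, fell in 16 of 26 cases with none higher (median -0.87). EGR1 went from 216 and 213 to 35.6 and 38.7 CPM (-2.53 ± 0.24, adjusted p = 7.9e-05), FOS from 59.6 and 63.9 to 14.2 and 16.6 CPM (-2.00 ± 0.15), and JUN by -1.18 ± 0.11. ZFP36, an RNA decay factor for cytokine messages, fell by -1.39 ± 0.17 and DUSP6, a phosphatase of ERK, by -0.86 ± 0.11. HBEGF, a ligand of the EGF receptor, went from 33.1 and 30.8 to 3.55 and 3.27 CPM (-3.23 ± 0.34). ID1, a target of BMP signalling, fell by -1.60 ± 0.17.

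Genes that limit or mark ferroptosis moved in both directions. GPX4, the phospholipid peroxidase, had 238 and 231 CPM without TNF and 258 and 226 CPM with it (0.04, 95% interval -0.26 to 0.35), and the groups overlapped. SLC7A11 went from 353 and 327 to 91.8 and 102 CPM (-1.81 ± 0.38, adjusted p = 0.0078), with its partner SLC3A2 at -1.27 ± 0.21, and both belong to the ATF4 list as well. AIFM2 (FSP1), which regenerates reduced coenzyme Q, fell by -0.63 ± 0.15. In all 4 of 32 suppressors rose and 7 fell, and without any 1 library 1 was called higher and 2 to 4 lower. Among 31 drivers and markers CHAC1 and the reductase POR (-0.41 ± 0.10) were the falls, and the glutaminase GLS2 (0.90 ± 0.23) was among the rises. Of the 31, 3 rose (9.68%) and 2 fell (6.45%), near the 7.57% and 7.03% of all tested genes. Without any 1 library this was 0 higher and 1 lower, and neither POR nor GLS2 was called. The lipid ligase ACSL4 (0.13, -0.67 to 0.92), PTGS2 (-0.14, -0.77 to 0.48), HMOX1 (-0.72, -1.32 to -0.12) and the transferrin receptor TFRC (0.55, -0.33 to 1.43) were not called. TFRC had 205 and 213 CPM without TNF and 305 and 308 CPM with it. These intervals use a spread estimated over all 6 groups. The TNF-alone libraries, outside this comparison, were unequal in TFRC (59.5 and 232 CPM) and ACSL4 (17.3 and 58.8 CPM).

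NRF2 targets, the electrophile and oxidant defence genes, fell in 13 of 32 cases with none higher and a median of -0.41. NQO1 went from 864 and 890 to 418 and 390 CPM (-1.12 ± 0.13, adjusted p = 0.00035) and the aldo-keto reductases AKR1B10 and AKR1C3 by -1.49 ± 0.15 and -0.81 ± 0.13. Without any 1 library 5 to 8 members were called. Ferritin light chain FTL, an iron store on this list too, went from 3006 and 3178 to 1655 and 1498 CPM (-0.97 ± 0.19), whereas FTH1 was not called (-0.34, -0.68 to 0.01). Of 18 iron genes 1 rose and 4 fell, with the ferroxidase HEPH (-1.80 ± 0.29), the importer SLC39A14 (-0.76 ± 0.14) and ACO1 (-0.63 ± 0.12) beside FTL. Of 25 redox enzymes and oxidases 3 rose and 2 fell. Mitochondrial superoxide dismutase SOD2, an NF-kB target, went from 37.9 and 40.0 to 93.4 and 92.8 CPM (1.26 ± 0.09) and NOXO1, the organiser of the colonic NADPH oxidase, from 2.28 and 2.35 to 14.7 and 15.1 CPM. TXNIP, which restrains thioredoxin and glucose uptake, fell from 610 and 626 to 125 and 106 CPM (-2.42 ± 0.24), and GPX3 by -1.21 ± 0.20. Of 15 AHR targets 3 rose and 2 fell, and CYP1A1 was not called (0.29, -0.19 to 0.76).

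Of 25 cholesterol synthesis genes 12 rose and none fell (median 0.42), HMGCS1 from 60.9 and 66.4 to 151 and 149 CPM (1.23 ± 0.23), LSS by 0.93 ± 0.13 and SQLE by 0.83 ± 0.12. Leaving out a single library, 4 to 7 genes of the list were called. Of 28 fatty acid genes 7 rose and 2 fell (median 0.14), with 1 to 4 called higher and 0 to 1 lower without any 1 library. The desaturase SCD went from 967 and 900 to 1149 and 1181 CPM, a small change (0.32 ± 0.08, adjusted p = 0.019), the ligase ACSL1 rose by 1.00 ± 0.11 and the elongase ELOVL1 fell by -0.68 ± 0.15. Of 39 lysosome genes 8 rose and 3 fell, the transcription factor TFEB (-0.82 ± 0.16) among the falls, and without any 1 library 4 to 5 were called higher and 0 to 1 lower.

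Genes of DNA replication rose together, 30 of 43 with none lower and a median of 0.78. LIG1, the replicative DNA ligase, went from 37.7 and 41.6 to 121 and 132 CPM (1.67 ± 0.21, adjusted p = 0.00052) and PCNA, the sliding clamp, from 138 and 137 to 290 and 284 CPM (1.06 ± 0.14). POLD1 rose by 1.11 ± 0.13 and CHAF1A by 0.83 ± 0.11. Without any 1 library 18 to 21 members were called. Of 33 mitotic genes 16 rose, AURKB (0.66 ± 0.11), UBE2C (0.71 ± 0.14) and KIF2C (0.61 ± 0.10) among them, and MKI67 went from 348 and 326 to 469 and 482 CPM (0.50 ± 0.13). All 33 had a positive change, but the number called was 2 without liproxstatin-1 library 1 or TNF with liproxstatin-1 library 1, 5 without liproxstatin-1 library 3 and 10 without TNF with liproxstatin-1 library 2. Of 22 G1 regulators 4 rose and 2 fell, and without any 1 library 1 to 2 were called higher and 0 to 1 lower. E2F1 (0.76 ± 0.14) and E2F2 (1.54 ± 0.27) rose, while MYC (-0.51 ± 0.11) and the CDK4 inhibitor CDKN2B (-1.90 ± 0.39, from 70.9 and 70.7 to 19.5 and 18.4 CPM) fell.

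Messages of cytosolic ribosomal proteins fell in 37 of 54 cases (median -0.58), and all 54 had a negative change. RPL3 went from 1594 and 1682 to 1036 and 943 CPM (-0.73 ± 0.10, adjusted p = 0.00071), RPL4 by -0.73 ± 0.10, RPL5 by -0.75 ± 0.11 and RPS6 from 1303 and 1405 to 834 and 697 CPM (-0.82 ± 0.12). TNF with liproxstatin-1 library 2 was the lowest in these 2 genes given by library. Without that library 7 members were called with a median of -0.44, without liproxstatin-1 library 3 or 1 it was 13 or 20, and without TNF with liproxstatin-1 library 1 it was 33. None of 38 nuclear-encoded respiratory chain genes was called by edgeR's test (median -0.03, 2 at an unadjusted p below 0.05), nor by DESeq2. Limma voom called 1 higher and 3 lower, the edgeR fit on the groups compared alone 1 higher and 1 lower, and that without the TNF group 1 lower. Of 29 glycolysis and hypoxia genes 3 rose and 5 fell, VEGFA (-1.02 ± 0.18), HK2 (-0.84 ± 0.10) and CA12 (-0.75 ± 0.10) among the falls.

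Mitochondrial transcripts changed unevenly although they come from common precursors. Of 13 mRNAs 5 fell and 1 rose: MT-ND2 went from 5290 and 4710 to 2363 and 2544 CPM (-1.03 ± 0.13), MT-CYB by -0.78 ± 0.09, MT-CO3 by -0.62 ± 0.08 and MT-ND3 by -0.65 ± 0.08. Transfer RNAs gave the widest range. MT-TK went from 107 and 91.6 to 5.89 and 4.14 CPM (-4.31 ± 0.46, adjusted p = 0.00017), MT-TM from 185 and 172 to 20.9 and 10.8 CPM and MT-TQ from 53.2 and 48.4 to 6.14 and 4.71 CPM. The levels without TNF were higher with liproxstatin-1 than in the other groups without TNF. MT-TK stood at 5.96 to 18.4 CPM in controls and at 21.6 and 24.0 CPM with ferrostatin-1. For MT-TM these values were 17.7 to 78.8 CPM, and 92.7 and 116 CPM. Among the 24 tested mitochondrial tRNA and rRNA genes 10 fell and 4 rose. The 4 that rose, named after their values were seen, were MT-TA (0.53 ± 0.11), MT-TN (0.55 ± 0.10), MT-TC (0.50 ± 0.10) and MT-TY (0.52 ± 0.09), which lie side by side. Libraries were made from poly(A) RNA, which mature tRNAs lack, and mitochondrial tRNA genes touch or overlap their neighbours.

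Epithelial identity and barrier genes mostly fell where they were called. LGALS4, a lectin of enterocytes, went from 676 and 733 to 185 and 161 CPM (-2.02 ± 0.19, adjusted p = 7.1e-05), CDH1 (E-cadherin) from 630 and 591 to 316 and 338 CPM (-0.90 ± 0.10) and the regulator HNF4A from 37.5 and 35.5 to 20.1 and 21.1 CPM (-0.82 ± 0.13). Of 16 colon epithelial genes these and VIL1 (-0.44 ± 0.09) fell and none rose. Of 18 absorptive enterocyte genes 5 fell (2 to 3 without any 1 library), with CDHR5 at -1.63 ± 0.31 and MYO1A at 0.613 and 0.564 CPM without TNF and 0 counts with it. Of 17 tight junction genes 3 fell, CLDN2 (-1.58 ± 0.25), CLDN7 (-0.85 ± 0.16) and MARVELD2 (-0.63 ± 0.12). Of 20 mucin and goblet genes 4 fell and 2 rose (3 to 4 and 1 without any 1 library). SPDEF (-1.31 ± 0.21), the goblet cell factor, AGR2 (-0.89 ± 0.16) and FCGBP (-1.41 ± 0.20) fell. The mucin gene MUC16 rose from 1.42 and 0.564 to 4.88 and 7.08 CPM (2.60 ± 0.41). Of 21 Wnt target and stem genes 5 rose and 4 fell (2 to 3 and 2 without any 1 library), NKD1 (1.12 ± 0.13) up and CD44 (-0.77 ± 0.10) and DKK1 (-1.21 ± 0.22) down. Of 14 keratins KRT15 rose (1.05 ± 0.24) and KRT13 fell (-1.71 ± 0.29). These shares, 7.14% each, were near the 7.57% and 7.03% of all tested genes. Without any 1 library 0 to 1 keratin was called higher and 1 lower. Of 19 matrix protease genes 4 rose and 1 fell, ADAM8 by 1.15 ± 0.10 and MMP7 by 0.80 ± 0.15. Alcohol dehydrogenases ADH1C (1.79 and 1.42 against 0.125 and 0.109 CPM) and ADH6 (4.11 and 5.11 against 0.625 and 0.395 CPM) fell among the 4 of 23 xenobiotic genes that did, with 1 higher.

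Genes known from leukocytes were among the largest single rises. ITGAM, the CD11b integrin of myeloid cells, went from 0.210 and 0.267 CPM to 20.4 and 21.9 CPM (6.45 ± 0.24, adjusted p = 6.8e-08), and LAPTM5 from 1.1 and 0.119 to 8.33 and 7.96 CPM. Of 11 tested leukocyte markers 4 rose and 1 fell. Of the 18 listed, 6 were at 0 counts in all 4 libraries, including PTPRC (CD45), CD3E, MS4A1 and TYROBP, and the summed list stood at 37.5 and 38.7 CPM without TNF and 60.3 and 60.1 CPM with it. The other leading rises were IL4I1 (2.01 and 1.19 to 60.0 and 56.8 CPM), an amino acid oxidase, UBD (0.700 and 0.520 to 33.8 and 23.4 CPM), the ubiquitin-like FAT10, and OR2I1P (0.245 and 0 to 13.6 and 10.8 CPM). OR2I1P and UBD overlap on opposite strands of chromosome 6 (29550407 to 29557721 and 29555515 to 29559732 in the deposited table, build not stated in the labels or header), so reads of one may be counted for the other. RP1 and FMC1-LUC7L2 had 0 counts in both liproxstatin-1 libraries. With TNF and liproxstatin-1 RP1 had 2.17 and 2.53 CPM and FMC1-LUC7L2 1.3 and 1.76 CPM. RP1 also stood at 1.42 and 2.23 CPM with TNF alone and 1.67 to 2.28 CPM with TNF and ferrostatin-1. FMC1-LUC7L2 was at 0 CPM in every library of the other groups, those with TNF included. Leading falls outside the lists were CD200 (6.18 and 7.90 to 0.672 and 0.531 CPM), a brake on myeloid cells, and C11orf53 (14.5 and 13.8 to 1.14 and 1.13 CPM).

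Gene classes did not move alike. Of 15136 protein-coding genes 1294 rose and 1408 fell (17.9% called), with a median of 0.00. Of 4028 long non-coding genes 280 rose and 73 fell (8.76% called, median 0.40). Calls also varied with level: of 8004 genes under 1 CPM 221 rose and 40 fell (3.26% called). The part of level in the difference between classes was not tested.

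The TNF response with liproxstatin-1 was set beside those without compound and with ferrostatin-1. The 3 responses share no library, each being taken against its own group without TNF. Among the 1680 genes that rose with liproxstatin-1 the median change was 1.01, beside 0.56 without compound and 0.85 with ferrostatin-1. Among the 1560 that fell it was -0.70, beside -0.24 and -0.64. Because these genes were chosen for their change with liproxstatin-1, a smaller median elsewhere is no result. Tested gene by gene, no difference was called against the response without compound (0%, edgeR's quasi-likelihood test, smallest adjusted p = 0.0519, 4329 genes at an unadjusted p below 0.05), and none against that with ferrostatin-1 (0%, smallest adjusted p = 0.329, 879 genes at an unadjusted p below 0.05). DESeq2 called 1303 and 19.

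The libraries behind the first of these differences were unequal. Between the 2 TNF-alone libraries the chi-square per degree of freedom over genes was 203.4, and among the 3 controls it was 19.83 to 74.29. Within the groups given a compound it was 14.86 to 23.76. ATF4 had 917 and 552 CPM in TNF libraries 1 and 3, against 636 to 840 CPM in the 3 controls, and its change was -0.06 without compound against -1.81 with liproxstatin-1 (difference -1.74 ± 0.27, adjusted p = 0.0754). CHAC1 had 68.2 and 39.6 CPM with TNF alone and 48.9 to 91.8 CPM in controls, and its change with liproxstatin-1 exceeded that without by -3.01 ± 0.38 (adjusted p = 0.0519). MKI67 had 163 and 184 CPM with TNF alone against 311 to 376 CPM in controls, a change of -0.97, where with liproxstatin-1 it was 0.50 (difference 1.47 ± 0.18, adjusted p = 0.0519). EGR1, TXNIP, ID1, DUSP6, MT-TK and the non-coding HELLPAR were the other annotated genes among the 10 smallest p-values, each with adjusted p = 0.0754. Without TNF library 3 the count of called differences was 6147, without TNF library 1 it was 239 and without control library 2 it was 18. Each leaves the model with a different estimate of the spread, and a lone TNF library is then assumed to vary like the others.

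TNFAIP3, NFKBIA, BIRC3 and C3 changed by 4.18, 2.75, 3.39 and 4.47 without compound, and the liproxstatin-1 changes differed from these by -0.05 ± 0.18, -0.46 ± 0.16, 0.55 ± 0.70 and 0.35 ± 0.43, none called. For BIRC3 the TNF-alone libraries were unequal, at 43.1 and 243 CPM. ICAM1 changed by 3.24 without compound and 2.44 with liproxstatin-1 (difference -0.80 ± 0.16, adjusted p = 0.103). List medians stood side by side as follows. For interferon-stimulated genes they were 0.73 with liproxstatin-1, 1.06 with ferrostatin-1 and 1.41 without compound, and for MHC class I 1.08, 1.01 and 1.61. For the ATF4 list they were -1.35, -1.15 and -0.55, for immediate early genes -0.87, -0.91 and 0.03, and for mitotic genes 0.72, 0.62 and -0.06. These medians were not tested against each other.

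**Figure D4:**
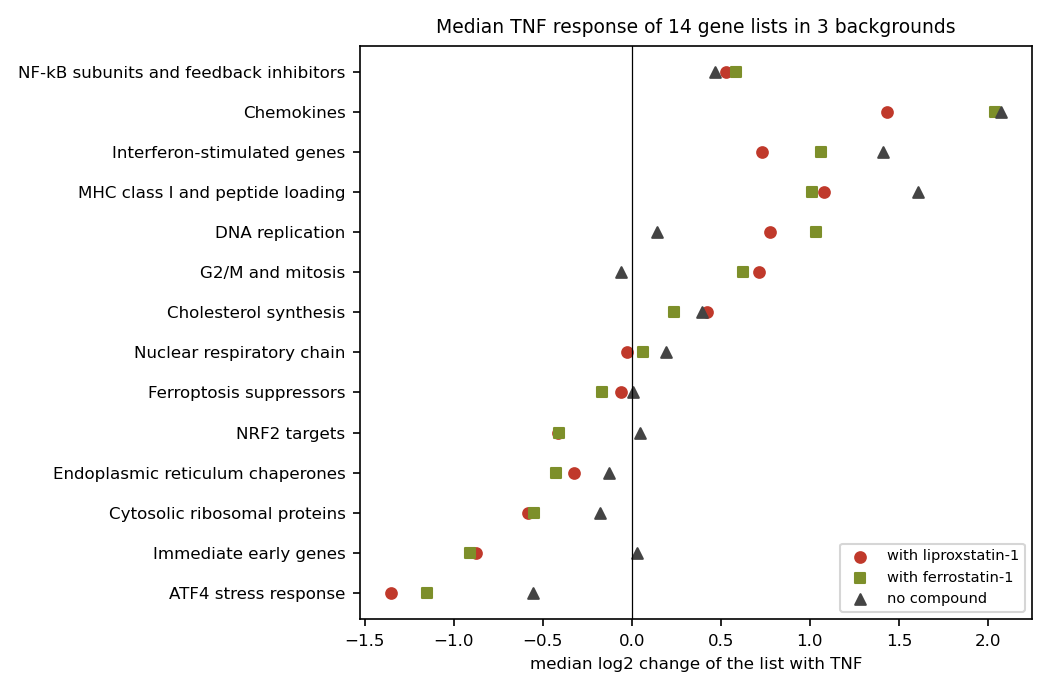
The x axis is the median log2 change with TNF of the tested members of 14 lists, for cells with liproxstatin-1 (red circles), ferrostatin-1 (green squares) or no compound (black triangles). The circles and squares lie close for the ATF4, immediate early and NRF2 lists, where triangles lie nearer 0.

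Between the inhibitors, the smallest p-values of the difference held SCD, PLA2G4C, TCN1, SOD2 and SLC6A20. SCD rose with liproxstatin-1 (0.32) and stood at -0.28 with ferrostatin-1 (837 and 895 against 675 to 747 CPM), a difference of 0.60 ± 0.11 (adjusted p = 0.417). SOD2 changed by 1.26 with liproxstatin-1 and 1.85 with ferrostatin-1 (difference -0.59 ± 0.12, adjusted p = 0.582). CHAC1 differed by -0.85 ± 0.38 and TRIB3 by -0.08 ± 0.51, neither called. The hair keratin KRT81 differed between the libraries given ferrostatin-1 alone (57.0 and 1.45 CPM) and was 1.47 to 1.79 CPM when TNF was added, and with its level as a covariate the count of called differences was 0 again.

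**Figure D5:**
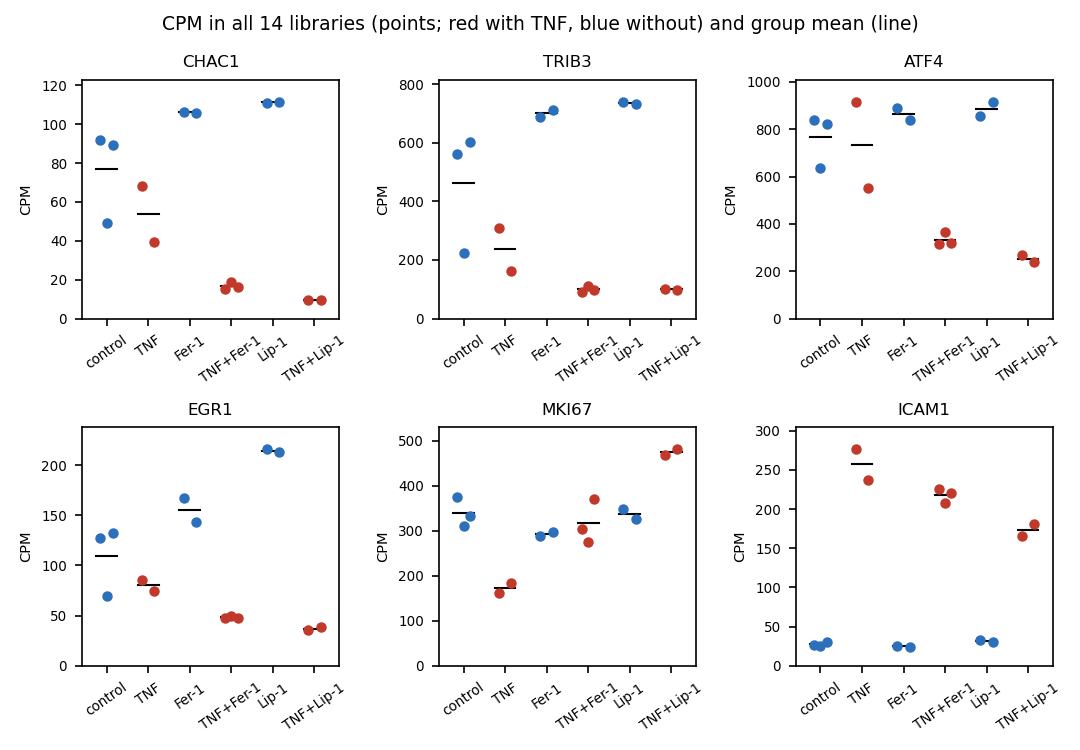
Points give CPM in all 14 libraries for 6 genes, each on its own axis from 0, with a line at each group's mean; red points are libraries with TNF and blue points those without. CHAC1, TRIB3, ATF4 and EGR1 are lowest in the libraries with TNF and either inhibitor, and MKI67 is lowest with TNF alone.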

How the data were processed

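Poly(A) RNA libraries of HT-29 cells were sequenced, per the labels' protocols. The authors deposited whole-number counts per gene, analysed here, and 14 columns of FPKM values that were not used. The tools in the submitters' processing notes, listed with no role, were DESeq2, edgeR, StringTie 1.3.4d, HISAT2 2.0.4 and cutadapt 1.9. Not given in the sources used here: the build, the counting program and whether it used strand. Overlapping genes, close paralogs and readthrough genes are therefore uncertain. Library numbers are those of the count columns; the liproxstatin-1 columns are numbered 1 and 3 and were matched to labels by group only.

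All 14 libraries (59913850 to 75838597 counts) were fitted in 1 model of 6 groups with edgeR 4.0.16 under R 4.3.3 (TMM scaling, filterByExpr, quasi-likelihood test, Benjamini-Hochberg adjustment). Standard errors are the change divided by the square root of F and are approximate. Libraries of a group differed beyond sampling noise, so none was merged. Chi-square per degree of freedom was 14.86 for liproxstatin-1, 22.27 for TNF with liproxstatin-1 and 203.4 for TNF alone. Genes were named by rule: the 15 largest called rises and falls of at least 2-fold with no overlap and a mean count of at least 50, the 4 smallest p-values per list, a fixed set, and the 10 smallest p-values per difference. Other members named in the text were picked with their values in view. The gene lists and members were chosen with earlier results of these data known. The model was tested on simulated counts. Alternatives were relative log expression and upper-quartile scaling, other filters, DESeq2 1.42.0, limma 3.58.1 with voom, fewer groups, a KRT81 covariate, blocks and leaving out libraries.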

Additional observations from a re-analysis of the deposited data

How the results depend on the processing

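With relative log expression scaling, upper-quartile scaling (chosen after seeing the data), both other filters, DESeq2 and the KRT81 covariate, the count of called genes for TNF with liproxstatin-1 stayed within 1.5 times of 3240. It was 6848 with limma voom, 5943 on these 2 groups alone and 5601 without the TNF group, and 1328 to 1485 without 1 of the 4 libraries. No call changed sign under any of these. Of 193 named called genes 154 to 159 stayed called without 1 library. Differences from the response without compound numbered 2 with no filter, 3 with the stricter filter, 1303 with DESeq2, 207 with limma voom, 2 with the KRT81 covariate, 3 with upper-quartile scaling, and 0 to 6147 without 1 library; the cause was not tested. Differences from the response with ferrostatin-1 numbered 19 with DESeq2, 8 with limma voom, 4 on the groups compared alone, 1 without the TNF group, and 0 to 3 without 1 library. The fit without the TNF group cannot give the difference from the response without compound.

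Library numbers did not pair the samples: library 1 of both groups deviated from their group means with r = -0.17 across genes. With the column number as a replicate block 1781 genes were called. With crossed numbers as a block, chosen after seeing the data, it was 2882, and 0 for both differences. Counts near 0 limit folds of low genes: of 8004 genes under 1 CPM 3.26% were called.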

Other observations

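The genes of this paragraph belong to none of the lists and were picked with their values in view. The butyrophilins BTN3A1, BTN3A2 and BTN3A3, which gamma delta T cells sense, rose by 1.48 ± 0.10, 1.46 ± 0.14 and 2.02 ± 0.13 with TNF in liproxstatin-1-treated cells, BTN3A3 from 10.4 and 11.3 to 44.3 and 43.8 CPM. The non-coding HCP5 of the MHC region went from 13.1 and 11.3 to 118 and 115 CPM, the cytidine deaminase APOBEC3B from 11.2 and 10.8 to 32.9 and 32.4 CPM, and the interferon receptor IFNAR2 from 15.7 and 15.4 to 41.3 and 40.0 CPM. WNT10A, a Wnt ligand, went from 2.82 and 4.35 to 33.6 and 34.4 CPM. Among falls, AREG, a ligand of the EGF receptor, went from 355 and 357 to 95.0 and 89.8 CPM, ERRFI1, a feedback inhibitor of that receptor, fell by -1.82 ± 0.23, and the thrombin receptor F2R went from 172 and 171 to 48.2 and 49.0 CPM. The water channel AQP3 fell from 298 and 292 to 80.5 and 68.6 CPM, and the elongation factors EEF2 and EEF1A1 by -0.90 ± 0.10 and -0.72 ± 0.10.

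Low counts of endothelial and fibroblast genes varied across the 14 libraries. VWF ranged from 0 CPM (TNF with liproxstatin-1 library 1) to 29.1 CPM (TNF with ferrostatin-1 library 1), and COL3A1, a fibroblast collagen, from 0 CPM in several libraries to 4.08 and 9.51 CPM in TNF libraries 1 and 3, its 2 highest values. These values belong to no comparison.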
